A study of Mus musculus with 23 samples.

Results

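Single-cell RNA-seq of spleen leukocytes was compared between mice that carried the STAT5B-Y665F change and WT mice, in every cell class that marker genes could define. The comparison held 2 libraries, 1 for each genotype, out of 23 samples in the series. After filtering they contributed 4826 cells (Y665F) and 6489 cells (WT), 11315 in all. Each library was 1 sample combined from 3 mice, so nothing in the spleen data measured the spread between animals, and no p-value is given for a spleen difference. The intervals beside spleen shares and ratios are exact 95% intervals. Intervals of a difference between shares combine the limits of both libraries and are approximate. All of them cover counting error only.

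All mice were of the C57BL/6 strain and 2 months old. The WT mice had an unedited Stat5b gene. The Y665F mice carried a germline edit, made in C57BL/6N zygotes with Cas9 protein, a guide RNA and a donor oligonucleotide, so the change is present in every cell type and is not driven by a transgene or Cre. The labels of the spleen libraries do not say whether the Y665F mice were heterozygous or homozygous. Another spleen library, from mice with a histidine at the same position (Y665H), was set beside these for its values only, since it shares the WT control. Lymph node libraries of WT (2), heterozygous Y665F (3) and homozygous Y665F mice (2) were the replicated data in which spleen genes could be tested. The suspensions were isolated as CD45-positive leukocytes and loaded with a target of 10000 cells.

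STAT5B is a transcription factor that Janus kinases phosphorylate when cytokines such as IL-2, IL-7 and IL-15 bind receptors containing the common gamma chain. Phosphorylated dimers enter the nucleus, bind palindromic DNA elements and raise genes such as Cish, Socs1, Bcl2 and Il2ra, several of which feed back on the same receptors. In the spleen this pathway is known for maintaining regulatory T cells, memory CD8 T cells and NK cells, and the related cytokines of myeloid cells also act through STAT5. The tyrosine that Y665F replaces lies in the SH2 domain, through which STAT proteins dock and dimerise.

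The guide and donor listed for the edit are printed because they state the codon that was designed to change. The guide, whose PAM is in capitals, matched the strand opposite to the Stat5b transcript. The reference stretch lies on the minus strand of GRCm38 at chr11:100787232-100787364. The edited codon, in capitals, occupies 100787291 to 100787293 in exon 16 of the 19 exons of Stat5b and is coding sequence. The donor replaces the tyrosine codon TAC with the phenylalanine codon TTT, which is A73T and C74T counted from 1 at the 5′ end of the printed stretch, and the translated stretches differ in 1 residue. The study's methods also describe a silent C-to-G change that removes the PAM. The donor printed here, taken from the study's supplementary oligonucleotide list, does not hold it, and which donor was used cannot be told from the count tables.
Guide: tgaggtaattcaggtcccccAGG
Reference: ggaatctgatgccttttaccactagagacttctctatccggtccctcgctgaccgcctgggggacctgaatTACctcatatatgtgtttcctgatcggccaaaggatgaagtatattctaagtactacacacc
Donor: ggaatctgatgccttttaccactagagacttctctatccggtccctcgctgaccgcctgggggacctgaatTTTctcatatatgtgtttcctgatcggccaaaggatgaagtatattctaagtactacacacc

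The promoter of Cish, an inhibitor of cytokine signalling and a classical STAT5 target, is printed as an example of the element STAT5 dimers bind, TTCNNNGAA. It covers chr9:107296409-107296708 of GRCm38 on the plus strand, from 250 bases before to 50 bases after the RefSeq start, and holds the letters at 2 places (capitals).
Cish promoter: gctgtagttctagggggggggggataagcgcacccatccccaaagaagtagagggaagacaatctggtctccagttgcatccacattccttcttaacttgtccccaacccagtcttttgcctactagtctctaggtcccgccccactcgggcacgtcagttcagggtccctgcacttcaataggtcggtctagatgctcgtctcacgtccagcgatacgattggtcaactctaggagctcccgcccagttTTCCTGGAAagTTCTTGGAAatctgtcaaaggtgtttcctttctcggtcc
TTCNNNGAA reads the same on both strands, and it occurred in 8.3% of the 32851 mouse promoters of this length. Of 20 genes in a list of STAT5 targets, 16 had a promoter in the table and 5 of these held it (Cish, Gzmb, Il12rb2, Il18r1 and Socs3), against 2582 of 27025 genes (9.55%) overall. A match is a string of letters and not evidence of binding.

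The edit itself could not be read from tables of gene counts. Stat5b RNA was measured in both libraries, at 67.9 CPM in WT and 48.9 CPM in Y665F, with 67.2 CPM in Y665H. A UMI is a molecular tag that marks 1 captured RNA molecule, and CPM is the UMIs of a gene scaled to a common total for each library or class. WT and Y665F libraries held 40480676 and 36889328 UMIs over 7020 and 5268 barcodes, of which 7 barcodes occurred in both. Median depth was 5368 UMIs per cell in WT and 6591 in Y665F after filtering, and the median mitochondrial share over all barcodes before filtering was 3.41% and 4.13%. The leukocyte marker Ptprc (CD45) was present at 1689 CPM in WT and 1306 CPM in Y665F. Every marker listed for CD8 T, conventional CD4 T, regulatory T, B, NK and neutrophil gates was detected in that gate in both libraries, which the gating itself largely fixes.

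The Y665F spleen held more CD8 T cells, regulatory T cells (Tregs), neutrophils and cells with a progenitor profile per cell captured than the WT spleen, and fewer conventional CD4 T cells and B cells. CD8 T cells were 24.9% of WT cells (1615 cells, interval 23.8 to 26.0%) and 37.0% of Y665F cells (1787 cells, 35.7 to 38.4%), with 16.4% in Y665H. Tregs, defined by Foxp3 UMIs in T cells without a CD8 profile, were 3.62% in WT and 7.02% in Y665F, and 2.73% in Y665H. Among conventional CD4 T cells and Tregs together, the Treg share was 13.7% in WT (235 of 1716, 12.1 to 15.4%) and 30.1% in Y665F (339 of 1125, 27.5 to 32.9%). Conventional CD4 T cells made up 22.8% and 16.3%, and B cells made up 24.97% and 16.1% of the WT and Y665F libraries. Shares of 1 library are tied to each other, and a higher share does not say that the organ held more cells of that class.

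Among the smaller classes, neutrophils were 1.40% of WT cells (91 cells) and 4.89% of Y665F cells (236 cells), and 7.33% of Y665H cells. Cells with a progenitor profile (Kit, Cd34, Mpo, Elane, Prtn3) numbered 0 of 6489 in WT, which allows a share of up to 0.0462% taken as 3 cells of the total (exact 95% upper limit 0.0568%). In Y665F they numbered 32 of 4826 (0.663%, 0.454 to 0.935%), a share that was 0.311% when 1 more marker was required and 0.427% with gates on 2000 UMIs. The 32 Y665F progenitor cells also held neutrophil marker RNA, 10 of 11 markers above 0 and 113329 CPM in sum, beside 16160 CPM of the progenitor markers themselves. A cell that met the progenitor gate was kept out of the neutrophil gate, and Mpo, Elane and Prtn3 are also on the neutrophil maturation list. The class is therefore named here only by the markers that chose it. The 6 such cells of Y665H held 362 CPM of neutrophil markers and 3433 CPM of progenitor markers. Basophils and mast cells went from 0.123% to 0.435%. NK cells (4.42% and 3.21%), gamma-delta T cells (1.45% and 0.767%) and dendritic cells (0.632% and 0.290%) had lower shares in Y665F, but the intervals of dendritic cells overlapped between the libraries, as did those of monocytes and plasma cells. The NK difference of -1.21 points became -0.76 points with at most 5% mitochondrial UMIs, with an interval from -1.57 to 0.07. The dendritic difference of -0.34 points became -0.05 points with gates on 2000 UMIs and -0.18 points with 1 more marker, with both intervals reaching past 0. The difference in CD8 share was 12.1 percentage points with gates on all UMIs and 4.23 points when every cell was thinned to 2000 UMIs before gating, so its size depended on depth while its direction did not.

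**Figure D1:**
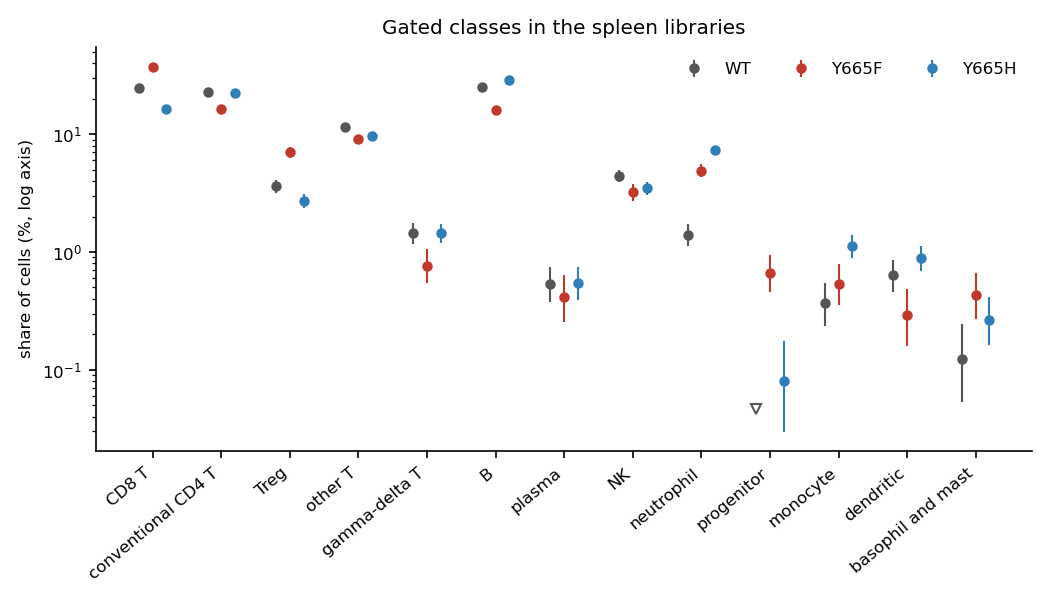
Share of all filtered cells in each gated class (log axis) for the WT, Y665F and Y665H spleen libraries, with exact 95% binomial intervals that cover counting error only. The open triangle marks the limit that 0 cells allow. Y665F lies above WT for CD8 T cells, Tregs, neutrophils, progenitors, and basophils and mast cells.

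Free neutrophil RNA was followed with S100a8 and S100a9, the abundant calcium-binding proteins of neutrophils that lymphocytes are not expected to make. In CD8 T, conventional CD4 T, Treg, remaining T, B and NK cells of the WT spleen, S100a8 lay between 8.28 and 15.9 CPM and S100a9 between 10.4 and 15.3 CPM. In the same 6 classes of the Y665F spleen they lay between 101 and 125 CPM and between 129 and 174 CPM, so the ranges of the libraries did not overlap. The neutrophils of the 2 libraries themselves held 65385 and 126349 CPM of S100a8. In WT, 15.8% of CD8 T cells and 10.4% of B cells had a UMI of either gene, against 83.5% and 65.2% in Y665F. With every cell thinned to 2000 UMIs, the shares were 5.19% and 5.16% in WT and 37.8% and 43.5% in Y665F.

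Ngp, Camp, Ltf and Lcn2 encode granule proteins of immature neutrophils. Their UMIs summed to 0.353 of the S100a8 and S100a9 UMIs in the Y665F neutrophils and to 0.364, 0.365 and 0.368 of them in its CD8 T, conventional CD4 T and Treg cells, with 0.410 in its B cells and 0.266 in its NK cells. In WT the ratio was 0.130 in neutrophils and 0.122 to 0.143 in those 3 T-cell classes, with 0.153 in B cells and 0.156 in NK cells. The neutrophil level of each gene, scaled to the S100a8 and S100a9 of a lymphocyte class, gave the level that free neutrophil RNA alone would bring. S100a8 and S100a9 set the scale, so their own estimate is near their level by construction. Of the other 22 measured genes higher in Y665F CD8 T cells none had an estimate of 50% or more of its measured level. Ngp, Camp, Ltf and Lcn2 lay under the filter on mean CPM in those cells and outside that count. They stood at 25.4, 29.0, 12.1 and 17.6 CPM in Y665F CD8 T cells, beside estimates of 29.2, 26.9, 11.8 and 13.9 CPM. Among the genes higher in B cells, Camp had an estimate of 75.9% of its measured level.

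**Figure D2:**
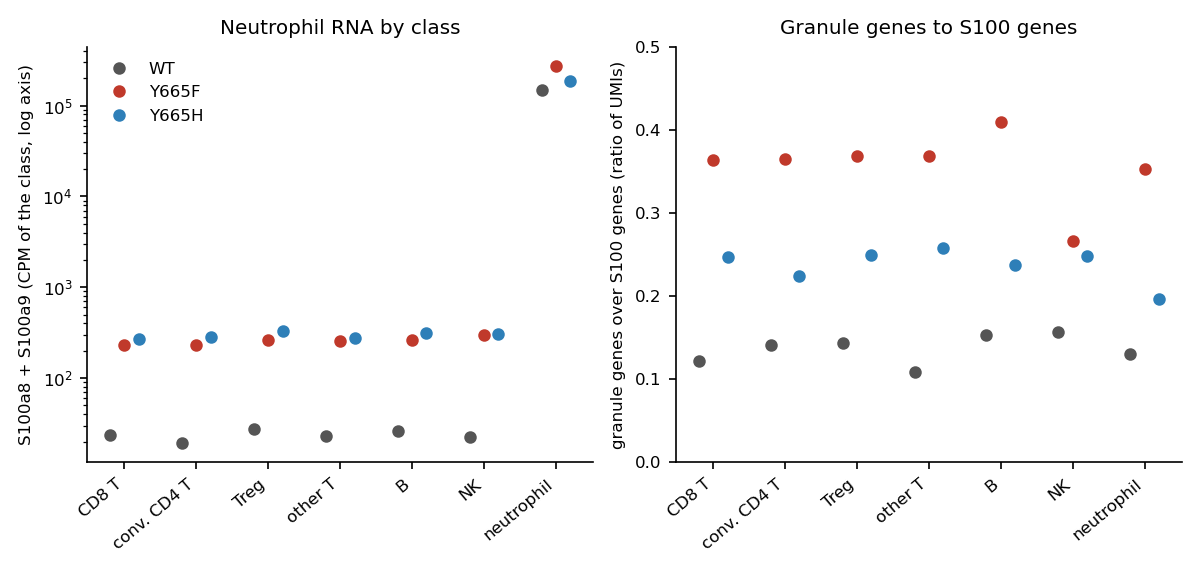
Left, summed S100a8 and S100a9 CPM by gated class (log axis); right, UMIs of the granule genes Ngp, Camp, Ltf and Lcn2 divided by UMIs of S100a8 and S100a9. Points are single libraries without replicates. Lymphocytes of Y665F and Y665H lie above WT lymphocytes in every class plotted on the left, while neutrophils hold by far the highest level in each library.

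CD8 T cells of the Y665F spleen carried more RNA of Bcl2, Ccl5, Gzmb, Gzmm and Il2rb, and less of Ccr9 and Itgae. UMIs were summed over the 1615 WT and 1787 Y665F cells, and a gene counted as measured with at least 30 UMIs over both libraries and a mean of at least 20 CPM. A gene under 20 CPM in 1 library could pass through its level in the other, and the counts past the fold in every class include such genes. Of 5211 measured genes, 24 were at least 2-fold higher (0.461%) and 24 at least 2-fold lower (0.461%) in Y665F. The median log2 ratio of all measured genes was -0.14, and with that median set to 0 the counts were 36 higher and 16 lower. The largest rise was that of Drc1, which encodes a subunit of the dynein regulatory complex of cilia. It had 22 UMIs in WT and 730 in Y665F, 1.87 and 47.4 CPM (log2 ratio 4.66, interval 4.05 to 5.35), and 1.21 CPM in Y665H. Drc1 was not a property of CD8 cells alone, with 1.36 and 30.1 CPM in conventional CD4 cells and 1.59 and 23.4 CPM in Tregs, while B and NK cells held 1 UMI each in Y665F and 0 in WT. S100a8 (log2 ratio 3.32) and S100a9 (3.27) came next, at levels close to those of the other lymphocyte classes of the same library given above.

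Bcl2, the anti-apoptotic protein that STAT5 induces, rose from 386 to 1042 CPM (log2 ratio 1.43, 1.38 to 1.48), and Y665H held 349 CPM. Ccl5, a chemokine stored by memory CD8 T cells, rose from 1240 to 4307 CPM (log2 ratio 1.80), against 947 CPM in Y665H. Gzmb (20.7 to 54.6 CPM) and Gzmm (28.2 to 74.3 CPM), both granzymes of cytotoxic granules, each had a log2 ratio of 1.40. Osbpl3, an oxysterol-binding protein, went from 8.15 to 33.2 CPM (2.03), Abcb9, a peptide transporter of lysosomes, from 15.8 to 41.2 CPM (1.38), and Gm10130 from 15.5 to 46.2 CPM (1.58). Gm10130 shares 26.7% of its 31-base words with other transcripts, so its counts could include reads of its relatives. In Y665H each of these genes stood below its Y665F value, a side that picking genes by their high Y665F to WT ratio itself favours.

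The falls were led by 2 lincRNAs. 1700062C10Rik had 467 UMIs in WT and 67 in Y665F, 39.7 and 4.35 CPM (log2 ratio -3.19, -3.58 to -2.82). Gm12840 fell from 108 to 20.7 CPM (-2.39) and shares 62.0% of its 31-base words with other genes. Ccr9, the receptor that guides T cells to the gut and thymus, fell from 115 to 28.2 CPM (-2.03). Itgae, the CD103 integrin that binds epithelium, fell from 47.9 to 18.6 CPM (-1.36), Rgcc, a cell-cycle regulator, from 90.1 to 32.8 CPM (-1.46), and Ramp1, part of the receptor for calcitonin gene-related peptide, from 57.7 to 22.2 CPM (-1.38). Als2cl fell from 48.5 to 15.5 CPM (-1.65) and overlaps Tmie on the opposite strand. Cd74, the invariant chain of MHC class II, which B cells and dendritic cells express, fell from 49.9 to 15.8 CPM (-1.66) and had 77.0 CPM in Y665H. The 6 B-cell markers, all above 0 in the CD8 gate, summed there to 54.6 CPM in WT, 29.4 CPM in Y665F and 78.6 CPM in Y665H, and their part in the Cd74 values was not tested. Iigp1, an interferon-induced GTPase, fell by 1.32 and Egr1, an immediate-early factor, by 1.29 on the log2 scale. In Y665H all 10 falls stood above their Y665F values, Ccr9 at 120 CPM and 1700062C10Rik at 52.5 CPM. Picking genes by their low Y665F to WT ratio itself favours that side.

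By gene list, 12 of 20 STAT5 targets were measured in CD8 T cells and 4 were past the fold, all higher: Bcl2, Gzmb, Il2rb (157 to 364 CPM, log2 ratio 1.22) and the kinase Pim1 (66.3 to 137 CPM, 1.05). The median log2 ratio of the list was 0.63, against -0.14 over all measured genes. The gene lists were chosen with earlier results of these data known, so such a difference is not independent support, here or in other classes. Il2rb encodes the beta chain through which IL-2 and IL-15 signal. Of 5 measured receptors that use the common gamma chain it was the only one past the fold, while Il7r had 802 and 716 CPM and Il2rg itself 281 and 259 CPM. None of 9 JAK and STAT genes passed the fold, with Stat5b at 57.1 and 39.6 CPM and Jak1 at 671 and 567 CPM.

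Of 14 memory and effector genes, 2 were past the fold upward (Ccl5 and Gzmm) and the median was 0.73. Ly6c2 stood at 513 and 886 CPM, Cxcr3 at 34.6 and 61.5 CPM, Cd44 at 34.5 and 60.0 CPM, and the memory regulator Eomes at 71.2 and 71.9 CPM, none of them past the fold. Of 13 naive T-cell genes 1 was past the fold downward (Ccr9), and the median was -0.32. Lef1 stood at 627 and 323 CPM and Tcf7 at 537 and 410 CPM. Of 7 cytotoxic genes, 2 were past the fold (Gzmb and Gzmm) and Prf1 stood at 71.2 and 87.0 CPM. The cell-cycle list had 0 of 9, interferon-induced genes 1 of 16 (Iigp1, lower), heat shock genes 0 of 10 and glycolysis genes 0 of 11 past the fold. The heat shock genes Hspa1b (7 and 263 UMIs, 4.84) and Hspa1a (6 and 96 UMIs, 3.61) lay under the CPM filter and outside that count.

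Ccl5 was used to ask how far these ratios followed the makeup of the CD8 gate. Cells with a Ccl5 UMI were 37.0% of WT CD8 T cells (34.7 to 39.4%) and 77.6% of Y665F CD8 T cells (75.6 to 79.5%), and 33.4% in Y665H. Median depth was 6884 and 8722 UMIs over all CD8 T cells. With all cells thinned to 2000 UMIs the shares were 23.8% and 66.5%. B cells, which should lack Ccl5, gave 12.3% and 15.9% unthinned and 6.55% and 7.75% thinned, at median depths of 3895 and 3810.5 UMIs. Within Ccl5-positive cells 11 of 5247 measured genes were past the fold upward (0.21%) and 19 downward. Within Ccl5-negative cells 16 of 5145 were past it upward (0.311%) and 9 downward.

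Some named genes were past the fold in both subsets and others in neither or in 1 of them. Bcl2 was higher among Ccl5-positive cells (450 and 1059 CPM, log2 ratio 1.23) and among Ccl5-negative cells (343 and 978 CPM, 1.51). Drc1 had log2 ratios of 3.93 and 5.52 in the Ccl5-positive and Ccl5-negative cells, Gm10130 of 1.57 and 1.63, Abcb9 of 1.09 and 1.40, and Gm12840 of -2.01 and -2.47. Gzmb had 0.46 and Gzmm 0.57 in the Ccl5-positive cells. In the Ccl5-negative cells Gzmb had 10 UMIs in WT and 15 in Y665F, too few to count as measured. Gzmm had 34 and 11 UMIs there (4.88 and 3.53 CPM) and did not reach the mean of 20 CPM. Itgae had -1.75 in the positive cells and -0.11 in the negative ones. Of the STAT5 targets only Bcl2 was past the fold within each subset, where all CD8 T cells had 4 of 12. That was 1 of 12 measured in Ccl5-positive cells (0.21% of all genes were higher) and 1 of 11 in Ccl5-negative cells (0.311%). The memory and cytotoxic lists, with 2 genes each over all CD8 T cells, had 0 of 16 and 0 of 8 within Ccl5-positive cells. Within Ccl5-negative cells those genes could not pass, since Ccl5 defines the subset and Gzmb and Gzmm were not measured there. A sum over a gate cannot separate more expressing cells from more RNA per cell, and Ccl5 divides cells that are themselves on a range.

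**Figure D3:**
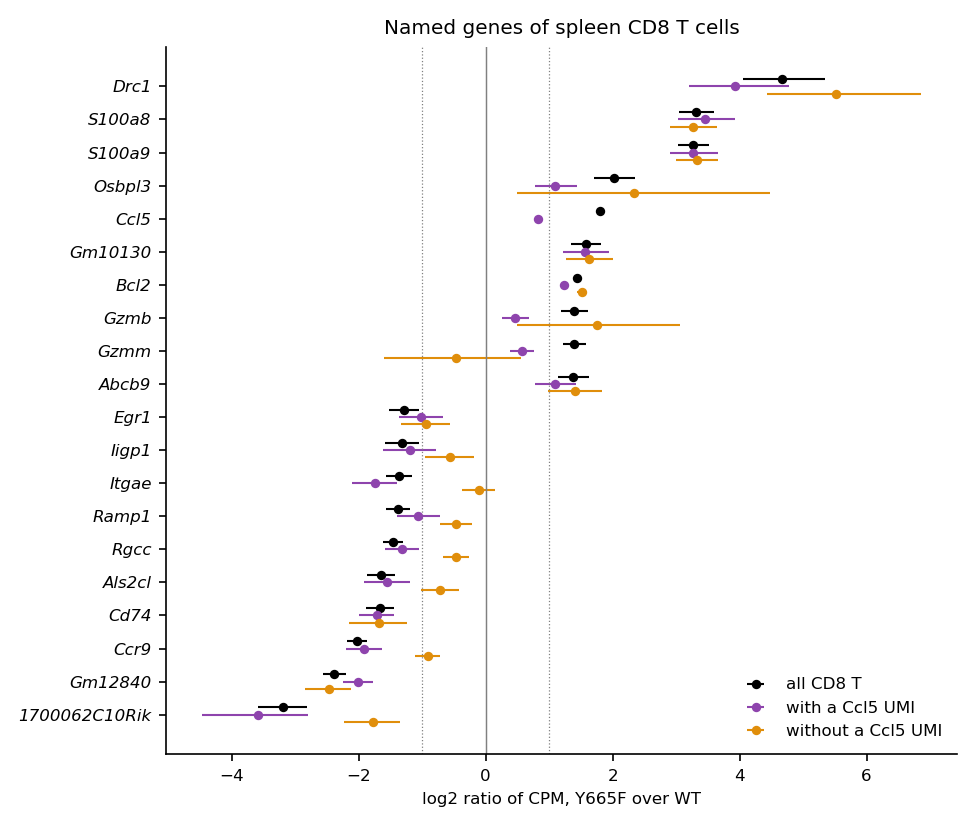
Log2 ratio of CPM, Y665F over WT, for the 10 largest rises and 10 largest falls in spleen CD8 T cells, in all CD8 T cells and in those with and without a Ccl5 UMI. Bars are exact 95% intervals of counting error, and dotted lines mark the 2-fold limits. Drc1, Gm10130, Bcl2 and Abcb9 keep log2 ratios above 1 in both subsets, and Gzmb and Gzmm fall below 1 within Ccl5-positive cells.

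Conventional CD4 T cells of the Y665F spleen had higher RNA of feedback inhibitors and IL-2 receptor chains and of genes best known from Tregs. Of 5362 measured genes, 39 were higher (0.727%) and 9 lower (0.168%). With at least 10 UMIs and no CPM filter the counts were 362 and 544, so the balance of rises and falls depended on the filter. Cish rose from 19.5 to 98.7 CPM (log2 ratio 2.34), with 14.2 CPM in Y665H, and Socs1, another feedback inhibitor, from 39.5 to 101 CPM (1.35). Il2ra, the CD25 chain, rose from 15.9 to 42.3 CPM (1.41), Il2rb from 55.7 to 141 CPM (1.34) and Bcl2 from 330 to 842 CPM (1.35). With these, 5 of 13 measured STAT5 targets were higher and none was lower, and the list median was 0.89 against -0.14 over all genes. Cish and Il2ra were under 20 CPM in WT and counted as measured through their Y665F level. Socs3 stood at 28.6 and 53.9 CPM and Pim1 at 91.2 and 169 CPM, under the fold.

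Of 8 measured Treg identity genes 7 were past the fold upward in these Foxp3-negative cells. Capg, an actin-capping protein, went from 25.1 to 105 CPM (2.07), Tnfrsf4, the OX40 receptor, from 194 to 419 UMIs (1.86), and Ikzf2, the Treg factor Helios, from 70.4 to 164 CPM (1.22). Ctla4 (1.23), Tnfrsf18 (1.15), Nrp1 (1.29) and Il2ra completed them, while Icos stood at 63.6 and 65.9 CPM. A Treg in which no Foxp3 UMI was captured falls into this gate, and Tregs were more frequent in the Y665F library, so the part of such cells in these ratios was not tested.

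The largest rises besides S100a8 (3.65) and S100a9 (3.55) were Myo6, an unconventional myosin, from 13.5 to 130 CPM (3.27), the phosphatase Ptpn13 from 6.24 to 34.1 CPM (2.45), and the granzyme Gzma from 15.8 to 81.5 CPM (2.37). The Gzma ratio turned to -0.15 when each lineage gate required 1 more marker and to -0.45 when gates were drawn on 2000 UMIs, so its direction depended on the gate. Dapl1 (246 to 553 CPM, 1.17) and Igfbp4 (247 to 533 CPM, 1.11) were higher and Itm2a (58.7 to 21.1 CPM, -1.47) lower among 12 measured naive T-cell genes, of which 3 had a ratio above 0, with a median of -0.44 against -0.14 over all genes. Other falls were Gm12840 (-1.90), the transcription factor Myb (42.3 to 12.8 CPM, -1.73), Cd74 (-1.19) and the polarity protein Patj (-1.09). The 6 B-cell markers summed to 51.1 CPM in the WT and 17.7 CPM in the Y665F CD4 gate.

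Tregs of the Y665F spleen held more RNA of Gzmb, Klrg1, Il1rl1 and the feedback inhibitors Cish and Socs2, and less of Tcf7 and Gpr83. Of 5666 measured genes, 47 were higher (0.83%) and 44 lower (0.777%), and with the class median of -0.08 set to 0 the counts were 64 and 30. Foxp3 itself, which defines the gate, had 484 and 487 CPM. The largest rise was Gzmb, from 4 UMIs among 235 WT cells to 372 UMIs among 339 Y665F cells, 3.19 and 181 CPM (log2 ratio 5.83, 4.46 to 7.71), with 17.2 CPM in Y665H. Dapl1 rose from 19.9 to 167 CPM (3.07) and Crem, a cAMP-responsive repressor, from 7.17 to 45.8 CPM (2.67). Among receptors, higher values were those of Klrg1 (28.7 to 124 CPM, 2.11), the IL-33 receptor Il1rl1 (19.1 to 82.8 CPM, 2.11) and the chemokine receptor Ccr2 (21.5 to 85.2 CPM, 1.99).

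Of 15 measured STAT5 targets in Tregs 3 were past the fold, all higher: Gzmb, Cish (150 to 306 CPM, 1.03) and Socs2, a feedback inhibitor of cytokine and growth hormone receptors (57.4 to 121 CPM, 1.07). Gzmb was under 20 CPM in WT and counted as measured through its Y665F level. With gates on 2000 UMIs 1 of 16 measured targets was higher, where 1.76% of all measured genes were. Il2ra stood at 429 and 518 CPM and Bcl2 at 456 and 570 CPM, below the fold and with ratios under those of conventional CD4 cells. Of 17 Treg identity genes 3 were higher (Il1rl1, Klrg1 and Tnfrsf4) and 1 lower, the orphan receptor Gpr83 (151 to 53.6 CPM, -1.499). Il1rl1 was likewise under 20 CPM in WT. Of 12 naive genes, Tcf7 (315 to 135 CPM, -1.22) and Itm2a were lower, and Dapl1 and Igfbp4 (49.4 to 155 CPM, 1.65) were higher. The remaining leading falls were the growth-factor receptor Igf1r (105 to 33.1 CPM, -1.67), Kctd2 (-1.48) and the histone genes Hist1h3c and Hist1h2ae, which share sequence with other histone genes and turned upward with gates on 2000 UMIs (Hist1h3c 2.64, Hist1h2ae 4.41).

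T cells outside those gates (746 WT and 438 Y665F cells with T-cell markers that fell into no other T-cell gate, cells with UMIs of both Cd4 and CD8 genes included) had higher cell-cycle RNA in Y665F. Of 5418 measured genes 45 were higher (0.831%) and 25 lower (0.461%), or 57 and 14 with the class median of -0.15 set to 0. Hist1h2ab (2.97 to 102 CPM), Hist1h1b (10.7 to 238 CPM), Hist1h2ae and Hist1h2ap led with the proliferation antigen Mki67 (4.71 to 78.4 CPM, log2 ratio 4.06), and Y665H held 54.6 CPM of Mki67. Of 8 measured cell-cycle genes 2 were past the fold, Mki67 and the topoisomerase Top2a (11.4 to 85.9 CPM, 2.91). Both were under 20 CPM in WT and counted as measured through their Y665F level. Cish (1.77), Socs2 (1.98), Socs1 (1.15), Bcl2 (1.29) and Gzmb (6.19 to 69.0 CPM, 3.48) made 5 of 15 STAT5 targets. Gzmb was under 20 CPM in WT as well. The falls were led by Sox4, a factor of early lymphocytes (50.1 to 9.02 CPM, -2.47), Gm12840 (-2.38), Ccr9 (-2.25), Myb (-1.90) and Gm14085 (-1.88).

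NK cells of the Y665F spleen, although a smaller share of the library, held more Gzmb, Socs2 and Bcl2 RNA. From 287 WT and 155 Y665F cells, 74 of 5950 measured genes were higher (1.24%) and 132 lower (2.22%), and 91 and 98 with the median of -0.09 set to 0. Gzmb rose from 260 to 1570 CPM (2.59) and stood at 249 CPM in Y665H. Socs2 rose from 8.50 to 92.9 CPM (3.45), the cytokine Osm from 7.79 to 43.1 CPM (2.47), and Bcl2 from 397 to 1031 CPM (1.38), which made 4 of 15 STAT5 targets. Socs2 and Osm were under 20 CPM in WT and counted as measured through their Y665F level. Cell-cycle genes past the fold were 3 of 9: Mki67 (12 and 74 UMIs, 3.55), Top2a (26 and 89 UMIs, 2.70) and the tubulin regulator Stmn1 (78 and 138 UMIs, 1.75). Mki67 and Top2a were under 20 CPM in WT as well. The histone gene Hist1h1b (10.6 to 210 CPM, 4.31), Pclaf (2 and 37 UMIs), Hist1h2ab (4 and 39 UMIs) and Anxa8 (5 and 40 UMIs) were among the 5 largest rises, with S100a9.

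Of 16 NK receptors Klrg1, a receptor of mature NK cells, was higher (97.0 to 250 CPM, 1.37), and Klra4 (1229 to 538 CPM, -1.19) and Klra1 (117 to 52.5 CPM, -1.15), members of the Ly49 family, were lower. The NK receptors Ncr1 (858 and 856 CPM) and Klrb1c (917 and 906 CPM) were nearly the same in both libraries. Both are markers of the NK gate, which partly fixes their levels, and Klre1, Klra8 and Klri2 on the receptor list are gate markers too. Of the 16 receptors 2 had a ratio above 0, and the list median was -0.35 against -0.09 over all measured genes. Among cytotoxic genes only Gzmb passed the fold, and Prf1 stood at 929 and 1352 CPM. The largest falls were the receptor Slamf6 (55 and 3 UMIs, -3.27), Frmd4b, the factor Eya1, the complement regulator Cd55 (70.8 to 16.2 CPM, -2.13) and Ppp1r15a, a stress-response phosphatase subunit (-1.996). Tcf7 (152 to 72.7 CPM, -1.07) and Cxcr3 (51.7 to 22.9 CPM, -1.18), which mark less mature NK cells, were lower as well. Ly49 genes are close copies of each other, so their counts could be shared.

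**Figure D4:**
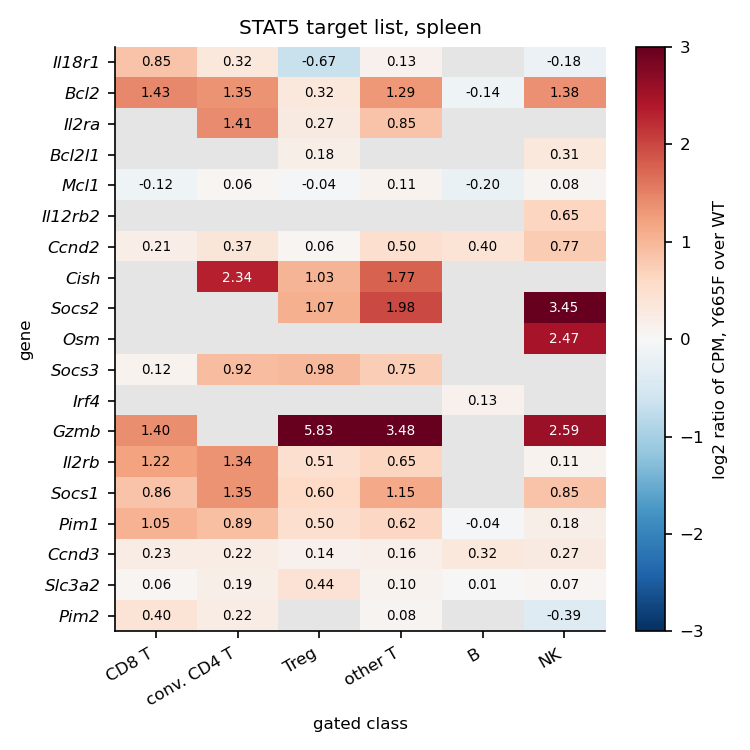
Log2 ratio of CPM, Y665F over WT, for the STAT5 target list in each spleen lymphocyte class (the colour scale ends at 3, grey means not measured). Bcl2 has ratios from 1.29 to 1.43 in CD8, conventional CD4, remaining T and NK cells and of 0.32 in Tregs, and the B-cell column runs from -0.20 (Mcl1) to 0.40 (Ccnd2).

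B cells had the fewest genes past the fold of the lymphocyte classes. Of 5639 measured genes 6 were higher (0.106%) and 4 lower (0.0709%), from 1620 WT and 778 Y665F cells. The largest rise was the neutrophil gene Camp (1.35 to 40.6 CPM, 4.91), followed by Hspa1b, S100a8 (3.49) and S100a9 (3.21). Hspa1b, a heat shock protein that stress induces, went from 1.80 to 42.8 CPM (4.57) and was as high in Y665H (43.8 CPM). Its rise was not particular to B cells. Under the CPM filter, it had 7 UMIs in WT and 263 in Y665F CD8 T cells (4.84) and 14 and 142 in conventional CD4 T cells (4.09). Tregs held 2 and 41 UMIs and remaining T cells 7 and 52, while NK cells held 0 in both libraries. It shares 68.0% of its 31-base words with other genes, chiefly Hspa1a. S100a6 (21.1 to 44.6 CPM, 1.08) and Gm42418 (1.07) were the remaining rises. The largest fall was Igha, an immunoglobulin gene outside the naming rule (101 to 28.9 CPM, -1.81), named with Gm42418 after their values were seen. Mesd (-1.14), Mir142hg (-1.14) and Egr1 (60.2 to 28.9 CPM, -1.06) were lower, and Rev1 (-0.92) and Tada3 (-0.89) came next without reaching the fold. None of 7 measured STAT5 targets was past the fold, with Bcl2 at 161 and 146 CPM. None of 10 MHC class II genes and none of 13 genes of B-cell states passed it, and the surface receptor Cr2 and the immunoglobulin chain genes Ighm and Ighd had log2 ratios between -0.20 and -0.17.

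Neutrophils of the Y665F spleen held more RNA of granule and cell-cycle genes, which immature neutrophils express, and less of Il1b, Csf3r and Cxcr2. Cells with at least 3 of the 4 granule genes Ngp, Camp, Ltf and Lcn2 were 5 of 91 neutrophils in WT (5.49%, 1.81 to 12.4%), 170 of 236 in Y665F (72.0%, 65.8 to 77.7%) and 70 of 550 in Y665H (12.7%). Over all neutrophils 395 of 4406 measured genes were higher (8.97%) and 1158 lower (26.3%), with a median log2 ratio of -0.44. With that median set to 0 the counts were 707 and 614, and 1007 and 619 when neutrophil marker, mitochondrial, ribosomal, hemoglobin and immunoglobulin genes were left out of the total, so the balance of rises and falls depended on scaling. Of 17 measured maturation genes 9 were higher and 6 lower. Ngp, Camp, Ltf, Lcn2, Mmp8, Mmp9, Retnlg, Cxcr2 and Csf3r on this list are also markers of the neutrophil gate that chose the cells. Ltf went from 2294 to 13965 CPM (2.61), Chil3, a chitinase-like granule protein, from 973 to 6239 CPM (2.68), and the granulocyte factor Cebpe from 128 to 478 CPM (1.90). The 6 lower genes included the cytokine Il1b from 4644 to 547 CPM (-3.09), the G-CSF receptor Csf3r from 2512 to 363 CPM (-2.79) and the chemokine receptor Cxcr2 from 2132 to 563 CPM (-1.92). Retnlg (6029 and 6702 CPM) and Mmp9 (1526 and 1242 CPM), also of mature neutrophils, did not pass the fold.

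Cell-cycle RNA came with the granule genes. Hist1h1b was at 0 UMIs among WT neutrophils and 905 CPM in Y665F, and Mki67 had 1 UMI in WT and 835 UMIs in Y665F. Stmn1, Hist1h2ab and Hist1h2ae completed the 5 largest rises. In the granule-rich Y665F neutrophils 53 of 170 cells (31.2%) had a Mki67 UMI, against 3 of 66 (4.55%) of the others, at median depths of 10943 and 3307 UMIs. The largest falls were Pmaip1 (94.3 to 2.27 CPM, -5.37), Ppp1r15a, Arhgap5, Sirpb1c and Tspan13, and 14 of 16 immediate-early genes were lower, where 26.3% of all measured genes were. Sirpb1c shares 56.9% of its 31-base words with other genes. When only neutrophils with fewer than 3 granule genes were compared (86 and 66 cells), 73 genes were higher and 139 lower of 2213 measured (6.28% lower), 2 of 16 measured immediate-early genes among them, and Cxcr2 stood at 2526 and 2624 CPM, Il1b at 5547 and 4926 CPM and Csf3r at 2988 and 2380 CPM.

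The lymph node libraries asked which of the spleen differences recurred in other, replicated samples. They were shallower, with medians of 408 to 3086.5 UMIs per cell against 5368 and 6591 in the spleens. CD8 T cells gave 362719 to 7647528 UMIs per library, conventional CD4 T cells as few as 36221 and Tregs as few as 8861, so the lymph node tests were weakest for Tregs. Summed UMIs were tested with edgeR's quasi-likelihood method over 7 libraries, homozygous Y665F minus WT, with a gene being called when its fold exceeded 2 in either direction and its p, adjusted by the Benjamini-Hochberg method over all tested genes, was below 0.05. These p-values measure the spread between libraries, which the labels number as replicates without naming the animals.

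In lymph node CD8 T cells 80 of 9562 genes were called higher (0.837%) and 28 lower (0.293%). Without the second homozygous library 20 were higher and 1 lower, and DESeq2 called 36 and 8. Of the 24 genes higher in spleen CD8 T cells 22 were tested, 16 were called higher and none was called lower, and all 22 had a positive fold change, with a median of 1.45 on the log2 scale. Of the 24 lower in spleen 22 were tested, 4 were called lower and 21 had a negative fold change, with a median of -0.70. The median over all tested genes was 0.00. The exception in sign is not among the 10 named falls.

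Drc1 had 5.2 and 2.70 CPM in WT lymph node CD8 T cells, 17.2, 20.4 and 24.6 CPM in heterozygous, and 28.5 and 23.0 CPM in homozygous libraries. Neither Y665F genotype overlapped with WT, and the log2 fold change was 2.81 (edgeR adjusted p = 3.995e-05). Ccl5 had 287 and 209 CPM in WT, 1369, 994 and 1599 CPM in heterozygous, and 1934 and 2934 CPM in homozygous libraries (3.32, edgeR adjusted p = 6.055e-09). Gzmm rose in the same order of genotypes without overlap (2.74, edgeR adjusted p = 1.413e-07). Osbpl3 was above WT in every Y665F library, with heterozygous and homozygous values that overlapped (log2 fold change 3.995, edgeR adjusted p = 0.0003428). Pim1 (1.09), Il2rb (1.03), Abcb9 (1.08), Ccr2 (2.10), Klre1 (2.68) and Gzmb (2.36) were called as well. Gzmb rested on low levels that overlapped, 5.2 and 1.35 CPM in WT against 4.39 and 14.7 CPM in homozygous libraries (edgeR adjusted p = 0.04296), and Klre1 was at 0 in 1 of the 2 homozygous libraries.

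Bcl2 had 181 and 179 CPM in WT and 391 and 327 CPM in homozygous lymph node CD8 T cells, a log2 fold change of 0.97 that passed the p threshold (edgeR adjusted p = 0.0004861) and missed the fold. Among the falls, Ccr9 had 78.0 and 70.7 CPM in WT, 40.7, 47.6 and 30.02 CPM in heterozygous, and 13.2 and 24.8 CPM in homozygous libraries (-1.70, edgeR adjusted p = 3.995e-05). Itgae (-1.47), Als2cl (-1.08) and 1700062C10Rik (7.43 and 7.02 CPM in WT, 2.20 and 0 in homozygous, edgeR adjusted p = 0.02021) were called too. Gm12840 (edgeR adjusted p = 0.2112), Ramp1, Iigp1, Cd74 and Egr1 were not called in the homozygous libraries. Gm10130, one of the 10 largest spleen rises, had a fold change of 0.36 (edgeR adjusted p = 0.7324).

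**Figure D5:**
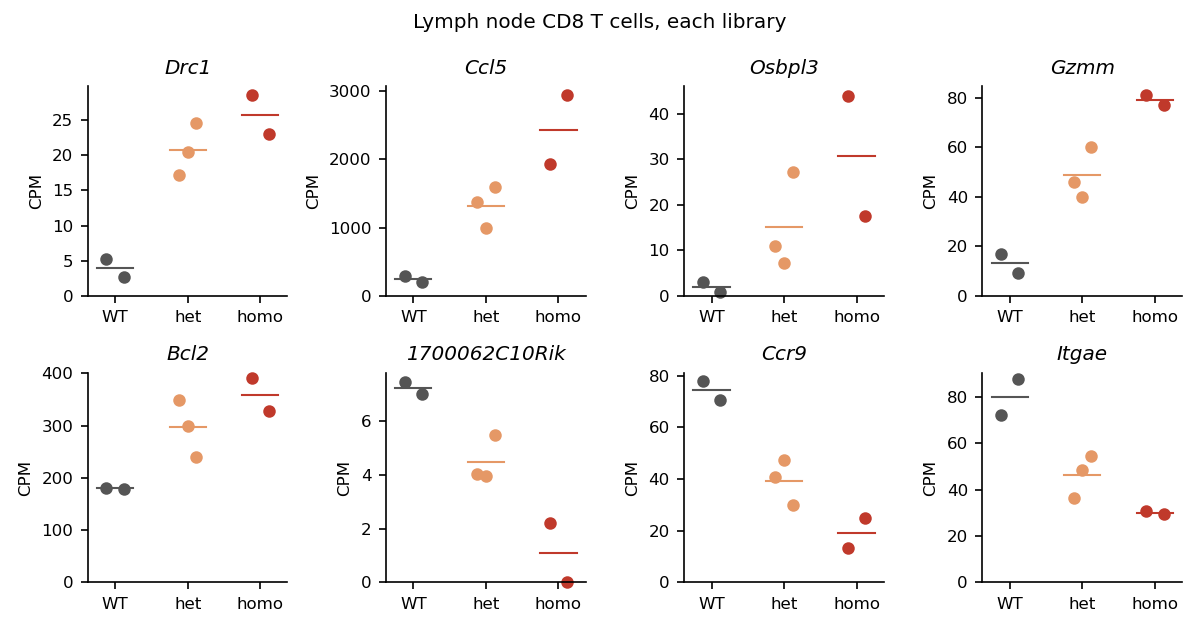
CPM in lymph node CD8 T cells for 8 genes named in spleen CD8 T cells, with 1 point for each library (2 WT, 3 heterozygous and 2 homozygous Y665F) and a line at the mean. Drc1, Ccl5, Osbpl3, Gzmm and Bcl2 are higher and 1700062C10Rik, Ccr9 and Itgae lower in every Y665F library than in either WT library.

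In the other classes fewer spleen genes were called in lymph nodes. In conventional CD4 T cells 13 of 6620 genes were higher (0.196%) and 6 lower (0.0906%), 19 in all, where DESeq2 called 1 and 1 was called without the second homozygous library. Of 39 genes higher in the spleen 30 were tested and 4 called, and 24 had a positive fold change, with a median of 0.46 on the log2 scale. Of 9 lower in the spleen 6 were tested, none was called and all 6 had a negative fold change (median -0.77). One of them, Itm2a, was called lower in heterozygous libraries (-1.33, edgeR adjusted p = 2.687e-06). It had 66.5, 72.0 and 50.7 CPM there against 184 and 165 CPM in WT, and -1.13 in homozygous libraries (edgeR adjusted p = 0.05455). The 4 called higher included Myo6 (8.35 and 5.41 CPM in WT, 24.7 and 75.5 CPM in homozygous libraries, 3.46, edgeR adjusted p = 0.001838) and Dapl1 (1.70, edgeR adjusted p = 2.857e-07). Cish had 16.7 and 26.2 CPM in WT and 74.2 and 49.3 CPM in homozygous libraries, a fold change of 1.13 that was not called (edgeR adjusted p = 0.5527). Ccl5, past the fold upward in spleen CD4 T cells (1.20), went the other way. It had 111 and 15.3 CPM in WT, 0.864, 16.9 and 50.7 CPM in heterozygous, and 0 in both homozygous libraries (edgeR adjusted p = 0.2312). In heterozygous libraries, which overlapped WT, it was called lower (-2.96, edgeR adjusted p = 0.02422). Of the Treg identity genes past the fold in the spleen CD4 gate, the 6 tested had fold changes from -0.71 (Tnfrsf4) to 0.42 (Capg and Tnfrsf18) in homozygous libraries and none was called there, while Tnfrsf4 was called lower in heterozygous libraries (-1.10, edgeR adjusted p = 0.03603), whose values overlapped those of WT.

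In Tregs 3 of 2941 genes were higher (0.102%) and 5 lower (0.17%), 8 in all, where DESeq2 called none, with 19 genes at its unadjusted p under 0.05, and none was called without the second homozygous or the second WT library. Of 47 higher in the spleen 22 were tested and 2 called, Dapl1 (2.30, edgeR adjusted p = 0.0002211) and Socs2 (1.86, edgeR adjusted p = 0.04283), and 12 had a positive fold change, with a median of 0.12. Of 44 lower in the spleen 9 were tested, 1 was called and 7 had a negative fold change (median -0.80). Gzmb, the largest rise of spleen Tregs, had 0 and 129 CPM in WT and 0 and 85.7 CPM in homozygous lymph node Tregs, and was not called (edgeR adjusted p = 0.98). The homozygous libraries held only 31 and 103 Tregs with 17096 and 123911 UMIs, so the 0 of the first says little. In B cells 1 of 8991 genes was higher (0.0111%) and none lower (0.0%), with 7.4% of tested genes at an unadjusted edgeR p under 0.05 and 0 calls by DESeq2. Of the 6 and 4 spleen B-cell genes 2 and 3 were tested and none was called, with 1 of 2 and 2 of 3 of the same sign as in the spleen.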

How the data were processed

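Gene-by-cell count matrices of the 3 spleen and 7 lymph node libraries were used as deposited. Per the file headers the authors made these counts with Cell Ranger 6.0.0 (spleen) and 5.0.0 (lymph node). The submitters' processing notes name Cell Ranger 5.0, Seurat 4.0 and build mm10. The labels name a 3′ kit and the study's methods a 5′ kit, so which end of a transcript was read is unsure. T-cell receptor and bone marrow files were not used here.

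Barcodes under 200 genes or over 10% mitochondrial UMIs were dropped. The highest-scoring doublets were removed at 0.8% per 1000 barcodes (377 in WT and 202 in Y665F). Classes were gated on UMIs of marker genes, and the number of markers a gate required was set after seeing the data. The members and gene lists were chosen with earlier results of these data known. Spleen CD8 T cells needed 3 T-cell markers, at least 2 UMIs of Cd8a and Cd8b1 together and none of Cd4. Lymph node gates needed 2 T-cell markers and 1 such UMI. Spleen UMIs were summed per class. CPM and log2 ratios were computed, a library under 3 UMIs being set to 3 in the ratio. Binomial and Poisson intervals are exact at 95%. A gene was past the fold at an absolute log2 ratio of at least 1. The text names the 10 largest rises and falls in CD8 T cells, the 5 largest in the other classes with at least 50 cells in both libraries, and members of the 19 gene lists.

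Lymph node sums were tested in edgeR 4.0.16 with TMM and all 7 libraries in 1 fit, with DESeq2 1.42.0 as an alternative. Python 3.11.15, scipy 1.17.1 and R 4.3.3 were used. Coordinates come from GENCODE on GRCm38 and promoters from RefSeq on GRCm38.p6. The tests were tested on simulated data.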

Additional observations from a re-analysis of the deposited data

Results flagged for a closer look

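Hist1h2ae, a histone gene of replicating cells, moved in opposite directions in spleen classes. Its log2 ratio of Y665F over WT was 3.956 in the remaining T cells and 3.276 in NK cells, and -1.574 in Tregs, where it turned to 4.41 with gates on 2000 UMIs. Each value comes from 1 library for each genotype, so the difference between classes was not tested. The gene shares 18.2% of its 31-base words with other histone genes. In lymph node Tregs it was called lower in homozygous Y665F (log2 fold change -2.11, edgeR adjusted p = 0.04461), with 265 and 232 CPM in WT, 82.5, 79.3 and 195 CPM in heterozygous, and 253 and 21.4 CPM in homozygous libraries, which overlapped.

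Egr1 in B cells had values of opposite sign in the organs, and the lymph node value was not called. Its log2 ratio was -1.057 in the spleen, and the homozygous minus WT value was 0.288 in lymph nodes (edgeR adjusted p = 0.7647). The difference between the organs was not tested.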

How the results depend on the processing

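Every spleen value rests on 1 pooled library per genotype, and depth limits the small classes. With gates on 2000 UMIs the CD8 difference moved to 4.23 points and the Treg share of CD4 cells to 23.5 points. At most 5% mitochondrial UMIs moved B cells to -10.9 and neutrophils to 4.56 points. Without the CPM filter and with 10 UMIs, the genes higher and lower were 367 and 690 in CD8 T, 362 and 544 in CD4 T, 341 and 459 in Treg, 356 and 586 in remaining T, 232 and 328 in B and 335 and 556 in NK cells, with 2236 lower in neutrophils. In lists, this setting gave 8 of 19 measured STAT5 targets higher in CD8 T and 8 of 19 in CD4 T, 5 of 20 memory genes in CD8 T, 14 of 19 Treg identity genes in CD4 T and 6 of 22 in Treg, and 10 of 17 cell-cycle genes in NK cells, where 2.86% of all measured genes were higher in CD8 T, 3.02% in CD4 T, 3.41% in Treg and 3.59% in NK cells. With mitochondrial, ribosomal, hemoglobin, immunoglobulin and neutrophil genes out of the total, the counts were 46 and 38 in CD8 T, 60 and 17 in CD4 T, 83 and 87 in Treg, 71 and 45 in remaining T, 8 lower in B and 1007 and 619 in neutrophils. In that setting 4 of 16 memory genes were higher in CD8 T, where 0.668% of all measured genes were. With the class median set to 0, 14 were lower in remaining T and 707 higher and 614 lower in neutrophils. In Tregs 5 of 17 Treg identity genes were then higher, where 1.13% of all measured genes were.

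Within Ccl5-positive CD8 T cells 11 of 5247 genes were higher (0.21%), with 1 of 12 STAT5 targets, 0 of 16 memory and 0 of 8 cytotoxic genes. Within negative ones 9 genes were lower and 0.311% of all were higher, with 1 of 11 STAT5 targets, 0 of 6 memory and 0 of 4 cytotoxic genes. Gates on 2000 UMIs gave 27 lower in CD4 T, 101 and 130 in Treg and 1 of 16 STAT5 targets higher in Treg, where 1.76% of all measured genes were. The 5% mitochondrial limit gave 15 lower in CD4 T and 9 in B. Restricting neutrophils to those with fewer than 3 granule genes, a choice added after seeing the data, gave 73 and 139 of 2213, with 3 of 14 maturation genes higher (3.3% of all) and 2 of 16 immediate-early genes lower (6.28% of all). Reversed ratios were S100a8 with free RNA subtracted (-0.39 in CD8 T, -1.38 in Treg, fixed by construction since S100a8 sets the amount subtracted), Gzmm in Ccl5-negative CD8 T (-0.46), Gzma in CD4 T (-0.45 on 2000 UMIs, -0.15 with 1 more marker), and in Treg on 2000 UMIs Hist1h3c (2.64) and Hist1h2ae (4.41). The causes were not tested. The other values checked were single-gene values and, in lymph nodes, the counts of heterozygous calls. Of these, 1047 stayed within their counting interval, on their side of the call or, for counts, near the main count. Another 91, spleen ratios and heterozygous counts together, moved out of that interval or away from the main count. In lymph nodes 32 single-gene values lost and 11 gained the call.

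In lymph nodes the homozygous minus WT calls were 108 in CD8 T, 19 in CD4 T, 8 in Treg and 1 in B. DESeq2 gave 44, 1, 0 and 0, no filter gave 1 in Treg and 62 in B, and keeping doublets gave 0 in B. Leaving out 1 library gave 21 to 130, 1 to 31, 0 to 12 and 0 to 30. Without the second homozygous library they were 21, 1, 0 and 0, and without the second WT library 44, 20, 0 and 7. Without the first homozygous library CD4 T had 31, Treg 5 and B 7, without the first WT library Treg had 3 and B 30, without the first heterozygous library CD4 T had 12, Treg 5 and B 0, without the second Treg had 4, and without the third B had 2. At an unadjusted p under 0.05 DESeq2 had 19 genes in Treg and 208 in B. A lone library left in a group is assumed to vary like the others.

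With the replicate number as a block the calls were 99, 10, 3 and 10. Same-numbered libraries had correlations of their deviations of -0.134 to 0.058 in CD8 T and under 0.1 in the other classes. In a group of 2 libraries the deviations mirror each other, so these correlations cannot show whether libraries were paired. No label names a pairing beyond the number, and no pairing was used.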

Other observations

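Cd163l1, a scavenger receptor known from gamma-delta T cells, stood out in CD8 T cells after its values were seen. It had 46 UMIs in WT and 533 in Y665F spleen CD8 T cells, 3.91 and 34.6 CPM (log2 ratio 3.15, 2.71 to 3.61), and 2.97 CPM in Y665H. It lay outside the counts above because its mean was under 20 CPM. Conventional CD4 cells held 7 and 5 UMIs. Cd163l1 is also 1 of the 5 gamma-delta T cell markers, and the other 4 were uneven in CD8 T cells. Tcrg-C1 went from 2.12 to 8.37 CPM (25 and 129 UMIs) and Tcrg-C2 from 3.14 to 10.4 CPM (37 and 161 UMIs), while Trdc went from 17.2 to 9.47 CPM (203 and 146 UMIs) and Trdv4 had 1 and 0 UMIs. The part of gamma-delta T cells in the Cd163l1 values was not tested. In lymph node CD8 T cells it had 6.69 and 5.13 CPM in WT, 30.8, 24.1 and 43.7 CPM in heterozygous, and 68.1 and 67.5 CPM in homozygous libraries, which did not overlap between genotypes (log2 fold change 3.59, edgeR adjusted p = 1.357e-08).

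Gzmb was also seen in conventional CD4 cells, under the 20 CPM filter, with 5 UMIs in WT and 117 in Y665F (0.567 and 22.3 CPM) and 1.04 CPM in Y665H. The ordering of classes by Gzmb CPM in the Y665F spleen was NK (1570), Treg (181), remaining T (69.0), CD8 T (54.6) and conventional CD4 T (22.3), while B cells held 0.923 CPM. In WT only NK (260) and CD8 T (20.7) were above 10 CPM.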
